A study of Mus musculus with 13 samples.

Results

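The genes described here are 32 genes that make cholesterol or control how much of it a liver cell makes, takes up and releases, out of 53465 genes in a count table of mouse liver RNA. They were chosen by name, from their known place in the pathway and not by a threshold on their values, though with earlier results of these data known. All 32 were among the 13545 genes with enough reads to be tested. There were 20 synthesis genes, of which 8 act in the mevalonate steps, 3 in the squalene steps and 9 between lanosterol and cholesterol. The other 12 comprised 4 genes of the control of the transcription factor SREBP2, 2 genes of sterol uptake and transport, and 6 genes of the LXR receptors and of sterol efflux.

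The livers came from individual BALB/c mice, an inbred strain, with 6 wild type (WT) mice and 7 mice in which *Nod2*, the gene for a sensor of bacterial cell wall fragments, was deleted in the whole animal (*Nod2*-/-). Every mouse of both genotypes had received the carcinogen DMBA once, on the skin, as a pup, and then a high-fat diet (HFD, 60% of its energy as fat). The labels give 30 weeks for diet and age, and the study's methods give 31 weeks of diet and name male mice. The genotypes were kept in the same room but were not littermates, all mice are labelled with the disease state cancer, and no mice on chow or without DMBA are analysed here. The study reports that among males so treated a larger share of *Nod2*-/- than of WT mice had liver tumors. It also reports that the *Nod2*-/- mice gained more weight. With 1 liver library per mouse, the tests measure the spread between mice.

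Cells make cholesterol from acetyl-CoA by way of mevalonate, the isoprenoids, squalene and lanosterol. When membranes of the endoplasmic reticulum hold little sterol, the escort protein Scap takes SREBP2 to the Golgi apparatus, where it is cut to release a transcription factor that switches on genes of synthesis and uptake, whereas Insig proteins hold Scap back when sterol is plentiful. Oxysterols activate the LXR receptors, which switch on genes of sterol export to blood and bile.

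Reads counted on genes ranged from 14886273 to 20579984 per WT mouse and from 13824780 to 19391431 per *Nod2*-/- mouse. *Nod2* had 0 to 4 counts in WT and 1 to 6 in *Nod2*-/- mice, too few to check the genotype labels. The 10 hepatocyte markers examined, such as *Alb* and *Ttr*, held 8.15% to 11.8% of the counts in WT and 8.92% to 16.2% in *Nod2*-/- mice. Most of these counts were *Alb*. Of the 10 markers, 4 had a log2 fold change of *Nod2*-/- against WT above 0 and 6 below, with a median of -0.12 by edgeR. Across genes, the library of WT replicate 3 had a mean correlation of 0.9622 with its own genotype and 0.9633 with the other, and *Nod2*-/- replicate 3 of 0.9712 and 0.9741, while the other 11 libraries were closer to their own genotype. The main counts of genes past 5% FDR are given with and without these mice.

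The regulatory DNA is shown first, because SREBP2 binds the sterol regulatory element in promoters of its target genes and acts there with NF-Y, which binds CCAAT, and Sp1, which binds GGGCGG. Promoters of 27 of the 32 genes were in the RefSeq table used (build GRCm38.p6), each with 250 bases before and 50 after an annotated start. Some genes, such as *Insig2* and *Dhcr7*, had several such starts. *Fdps*, *Fdft1*, *Sqle*, *Stard4* and *Abcg1* were not matched. The core CACCCCAC of the sterol element, searched on both strands, was found for 2 of 17 synthesis genes (*Hmgcs1* and *Acat2*), against 3.30% of all 27025 genes with a promoter. The looser form CACNCCAC, which includes the core, was found in addition for *Insig1*, on the reverse strand at bases -9 to -2 from the start, and for 7.12% of all genes.

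CCAAT was found for 16 of 17 synthesis genes, all but *Acat2*, against 41.1% of all genes and 42.9% of the 10014 tested genes with a promoter. GGGCGG was found for 15 of 17 synthesis genes, against 38.2% of all and 66.5% of tested genes. Among 5 control, uptake and transport genes with a promoter, 4 held CCAAT and 5 held GGGCGG, and among 5 LXR and efflux genes 2 held CCAAT and 1 held GGGCGG. Those 2 were *Abcg5* and *Abcg8*, which start close together on opposite strands, so that their promoter stretches overlap. The E-box CACGTG, which proteins of the SREBP family and other factors can bind, was found for 3 of 17 synthesis genes, against 8.09% of all and 11.7% of tested genes. These are matches of letters, and binding was not measured.

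The upstream stretches of 4 genes are given 5′ to 3′ along the gene, without bases of annotated exons. They show how matches lay in genes with different log2 fold changes, 1.47 for *Hmgcs1*, 1.10 for *Mvk*, 0.42 for *Acat2* and 0.03 for *Ebp*. These 4 genes were picked with their fold changes known. Capitals mark the looser sterol element or CCAAT on either strand. The stretches are chr13:119690101-119690350 (+ strand) for *Hmgcs1*, chr5:114444061-114444268 (+ strand) for *Mvk*, chr17:12960748-12960975 (- strand) for *Acat2* and chrX:8193513-8193762 (- strand) for *Ebp*.
Hmgcs1: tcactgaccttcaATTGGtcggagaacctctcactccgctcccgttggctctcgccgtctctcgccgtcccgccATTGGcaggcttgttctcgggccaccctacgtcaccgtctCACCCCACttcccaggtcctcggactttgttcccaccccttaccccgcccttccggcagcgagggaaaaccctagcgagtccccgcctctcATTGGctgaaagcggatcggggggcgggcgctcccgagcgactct
Mvk: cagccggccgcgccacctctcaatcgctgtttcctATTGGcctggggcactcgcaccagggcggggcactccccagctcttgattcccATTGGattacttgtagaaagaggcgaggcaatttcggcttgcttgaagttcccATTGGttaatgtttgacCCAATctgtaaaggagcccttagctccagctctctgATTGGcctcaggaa
Acat2: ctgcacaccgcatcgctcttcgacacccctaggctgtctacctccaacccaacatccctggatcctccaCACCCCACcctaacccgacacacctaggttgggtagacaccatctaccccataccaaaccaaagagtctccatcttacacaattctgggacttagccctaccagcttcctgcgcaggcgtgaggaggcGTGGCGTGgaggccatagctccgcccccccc
Ebp: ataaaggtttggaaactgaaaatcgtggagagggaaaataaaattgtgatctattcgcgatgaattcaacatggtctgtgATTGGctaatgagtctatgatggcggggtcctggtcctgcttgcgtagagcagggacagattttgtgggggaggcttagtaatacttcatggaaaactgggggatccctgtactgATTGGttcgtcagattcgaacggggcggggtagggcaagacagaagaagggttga

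*Hmgcs1* held the core at bases -136 to -129 and 3 matches of CCAAT, and *Mvk* held 5 matches of CCAAT and no sterol element. *Acat2* held the core at bases -181 to -174 and a looser match at -53 to -46. *Ebp* held CCAAT in 2 places.

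All 20 synthesis genes had a higher fitted level in *Nod2*-/- than in WT liver, with log2 fold changes from 0.03 for *Ebp* to 2.01 for *Sqle* and a median of 1.11, against 0.02 over all genes tested. With all mice, however, none passed the test across all genes. In the quasi-likelihood test of edgeR, 0 of the 32 genes were past a false discovery rate (FDR, Benjamini-Hochberg) of 5%, against 0.650% of all genes as higher and 0.509% as lower. At an unadjusted p under 0.05, 17 of 20 synthesis genes were higher, against 12.9% of all genes. Of the other 12 genes, *Srebf2*, *Insig1* and *Mylip* were higher and *Abcg8* was lower at that p, against 10.2% of all genes as lower. In bulk tissue, fewer cells of a type and less RNA per cell cannot be told apart.

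The calls depended on the test and on single mice. DESeq2, the study's tool, placed 12 of the 32 genes past 5% FDR as higher (against 3.81% of all genes) and 0 as lower (against 3.45%). They were *Mvk*, *Pmvk*, *Mvd*, *Idi1*, *Fdps*, *Msmo1*, *Lbr*, *Sc5d* and *Dhcr7* of the synthesis genes, with *Srebf2*, *Insig1* and *Mylip*. The study itself names *Hmgcs1*, *Idi1*, *Msmo1*, *Mvk* and *Sqle* among the elevated genes of steroid synthesis. Of these, *Hmgcs1* (adjusted p = 0.0567 by DESeq2) and *Sqle* (adjusted p = 0.0944 by DESeq2) did not pass here. Without WT replicate 3, edgeR placed 16 genes past 5% FDR (against 5.12%), namely 13 synthesis genes, *Insig1*, *Mylip* and *Abcg1*. DESeq2 without that mouse, a setting chosen after seeing the data, placed 19 (against 7.96%), namely 15 synthesis genes, *Srebf2*, *Insig1*, *Mylip* and *Abcg1*. With limma's voomWithQualityWeights, which weights each library by how well it follows the fit, 11 synthesis genes passed (against 3.83%), and WT replicate 3 had the lowest weight, 0.474. With 1 surrogate variable, 5 synthesis genes and *Mylip* passed (against 3.27%). Without *Nod2*-/- replicate 3 edgeR called *Pmvk* (against 0.863%), and without *Nod2*-/- replicate 1 it called *Mylip* (against 0.824%).

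**Figure D1:**
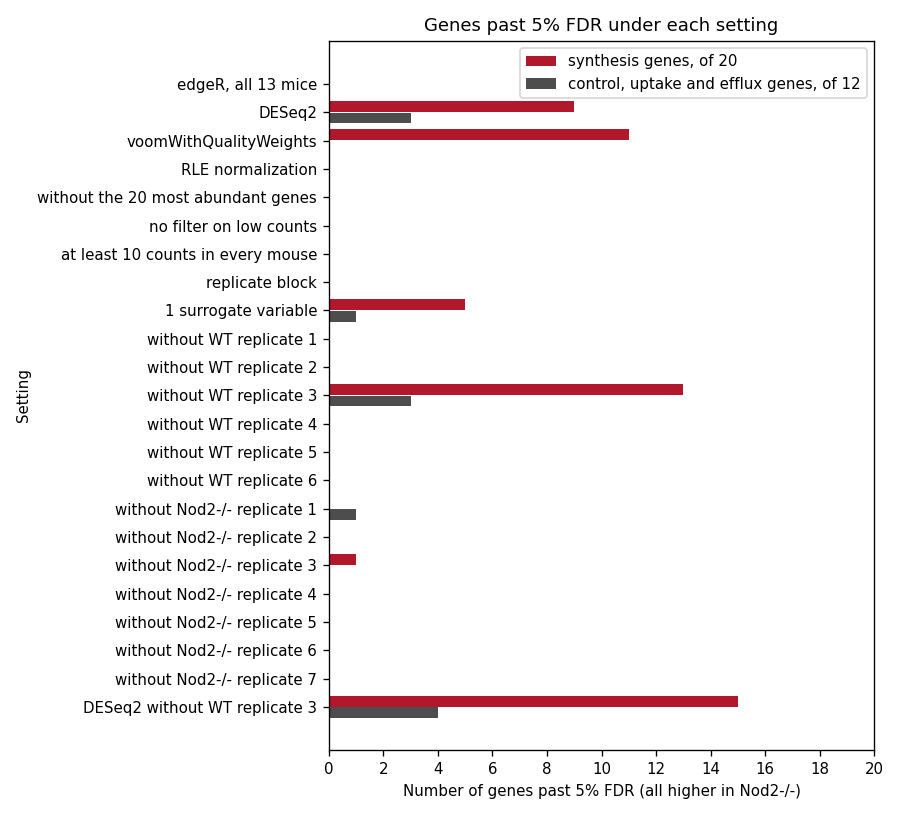
Number of genes past 5% FDR (horizontal axis) under each setting, with red bars for the 20 synthesis genes and grey bars for the 12 control, uptake and efflux genes. There is no bar for edgeR on all 13 mice, and the longest red bars, 13 and 15 genes, belong to both settings without WT replicate 3.

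The 8 genes of the mevalonate steps had a median log2 fold change of 1.33, and 7 had an unadjusted p under 0.05. *Pmvk*, phosphomevalonate kinase (ENSMUSG00000027952.16, chr3:89454541-89469013), had 193, 364 and 466.3 normalized counts in the lowest, median and highest WT mouse and 347, 688 and 1390.2 in *Nod2*-/- mice. In all but *Nod2*-/- replicate 3, which lay among the WT mice, its level was above every WT mouse. Its log2 fold change was 1.19 ± 0.29 (SE), with an adjusted p of 0.0598 by edgeR and 0.00369 by DESeq2 and a two-sided exact permutation p of 0.00874.

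*Mvd*, which decarboxylates mevalonate diphosphate to the first isoprenoid (ENSMUSG00000006517.5, chr8:122433601-122443422), had 29.6, 68.3 and 248.5 normalized counts in WT and 121, 305 and 721 in *Nod2*-/- mice, again as lowest, median and highest. The groups overlapped through WT replicate 3 alone, since the next WT mouse, at 101, lay below every *Nod2*-/- mouse. For *Mvd* the log2 fold change was 1.85 ± 0.52 (SE) with an adjusted p of 0.0729 by edgeR and 0.0196 by DESeq2, and 2.41 with an adjusted p of 0.0180 by edgeR without WT replicate 3. Without *Nod2*-/- replicate 7 it was 1.65 (adjusted p = 0.140 by edgeR), and without *Nod2*-/- replicate 4 it was 1.56 (adjusted p = 0.141 by edgeR).

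*Mvk*, mevalonate kinase (ENSMUSG00000041939.14, chr5:114444269-114460591), had 153, 178 and 329.9 normalized counts in WT and 216, 353 and 779.8 in *Nod2*-/- mice. WT replicate 3 was the highest WT mouse, and all *Nod2*-/- mice lay above the next, at 211, though *Nod2*-/- replicates 3 and 5 only by a small margin. *Mvk* had a log2 fold change of 1.10 ± 0.32 (SE), with an adjusted p of 0.0794 by edgeR and 0.0159 by DESeq2.

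*Hmgcs1*, the HMG-CoA synthase of the cytosol (ENSMUSG00000093930.2, chr13:119690379-119708260), had 952, 1505 and 5770.4 normalized counts in WT and 2118, 5927 and 11837 in *Nod2*-/- mice. WT replicate 3 was far above the next WT mouse at 1759 and lay just under the *Nod2*-/- median. The log2 fold change of *Hmgcs1* was 1.47 ± 0.49 (SE) with an adjusted p of 0.106 by edgeR, and 2.07 with an adjusted p of 0.0178 without WT replicate 3. *Idi1* and *Fdps*, which make and join isoprenoid units, had log2 fold changes of 1.61 and 1.55. *Acat2*, which joins acetyl-CoA units, had 0.42, and its reads may be shared with its close copy *Acat3*. *Ggps1*, whose product leads away from sterols to geranylgeranylated proteins, had 0.19.

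In the squalene steps the median log2 fold change was 0.91, and all 3 genes had an unadjusted p under 0.05. *Sqle*, squalene epoxidase, a slow step of the pathway (ENSMUSG00000022351.14, chr15:59315077-59331192), had 37.3, 244 and 1421 normalized counts in WT and 531, 1464 and 4178.5 in *Nod2*-/- mice. The WT mice alone spanned 38.1-fold from lowest to highest, and apart from WT replicate 3 they reached 428, below every *Nod2*-/- mouse. *Sqle* had a log2 fold change of 2.01 ± 0.77 (SE) with an adjusted p of 0.146 by edgeR and 0.0944 by DESeq2, and 3.01 with an adjusted p of 0.0298 by edgeR without WT replicate 3. Its log2 fold change by edgeR was 1.87 without *Nod2*-/- replicate 7 and 1.58 without *Nod2*-/- replicate 4.

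*Fdft1*, squalene synthase (ENSMUSG00000021273.10, chr14:63145150-63179578), had 872, 1265 and 1732.5 normalized counts in WT and 1095, 1783 and 3139 in *Nod2*-/- mice. Of the *Nod2*-/- mice, 4 were above all WT mice and 3 lay among them. The fitted change in *Fdft1* was 0.62 ± 0.24 (SE) on the log2 scale, with an adjusted p of 0.150 by edgeR. *Fdft1* lies between 50 and 85 Mb of chromosome 14, where 9.78% of 225 tested genes were past 5% FDR by edgeR against 1.01% elsewhere. The bounds of this segment were not set independently of these data, so that share is a description and not a test. *Fdft1* shares 774 exon bases with *Ctsb* on the opposite strand, whose own log2 fold change was 0.09, and whether counting used strand is not given in the sources used here. *Lss*, which closes squalene epoxide to lanosterol, had 0.91, and 1.40 with an adjusted p of 0.0328 by edgeR without WT replicate 3. It had 0.88 without *Nod2*-/- replicate 7 and 0.69 without *Nod2*-/- replicate 4.

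Between lanosterol and cholesterol the median log2 fold change was 0.75, and 7 of 9 genes had an unadjusted p under 0.05. *Sc5d*, sterol C5 desaturase (ENSMUSG00000032018.14, chr9:42251595-42264256), had 1699.8, 2251 and 3385.4 normalized counts in WT and 2535, 4200.3 and 5398 in *Nod2*-/- mice. Of the *Nod2*-/- mice, 4 were above all WT mice and 6 above all WT mice but replicate 3. *Sc5d* differed by 0.75 ± 0.21 (SE) on the log2 scale, with an adjusted p of 0.0738 by edgeR and 0.0175 by DESeq2.

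*Dhcr7*, which reduces 7-dehydrocholesterol to cholesterol (ENSMUSG00000058454.15, chr7:143823145-143848410), had 407, 642 and 1626 normalized counts in WT and 852, 1726 and 2724.5 in *Nod2*-/- mice. WT replicate 3 lay among the *Nod2*-/- mice, and the next WT mouse, at 769.7, lay below all of them. For *Dhcr7* the log2 fold change was 1.11 ± 0.33 (SE), with an adjusted p of 0.0807 by edgeR and 0.0161 by DESeq2.

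*Lbr*, the lamin B receptor, which also reduces the C14 double bond of sterols (ENSMUSG00000004880.11, chr1:181815335-181843046), had 116, 133 and 168 normalized counts in WT and 142, 185 and 358 in *Nod2*-/- mice. Its highest WT mouse was replicate 6, and 5 *Nod2*-/- mice were above it. *Lbr* had a log2 fold change of 0.67 ± 0.20 (SE), with an adjusted p of 0.0846 by edgeR and 0.0364 by DESeq2. *Nsdhl*, *Cyp51* and *Msmo1*, which act in the removal of methyl groups from lanosterol, had log2 fold changes of 1.40, 1.38 and 1.35. *Tm7sf2*, the other C14 reductase, had 0.58 and shares 532 exon bases with *Vps51* on the same strand. *Hsd17b7*, a sterol ketone reductase, had 0.34, and *Ebp*, which shifts a double bond in the sterol ring, had 0.03.

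**Figure D2:**
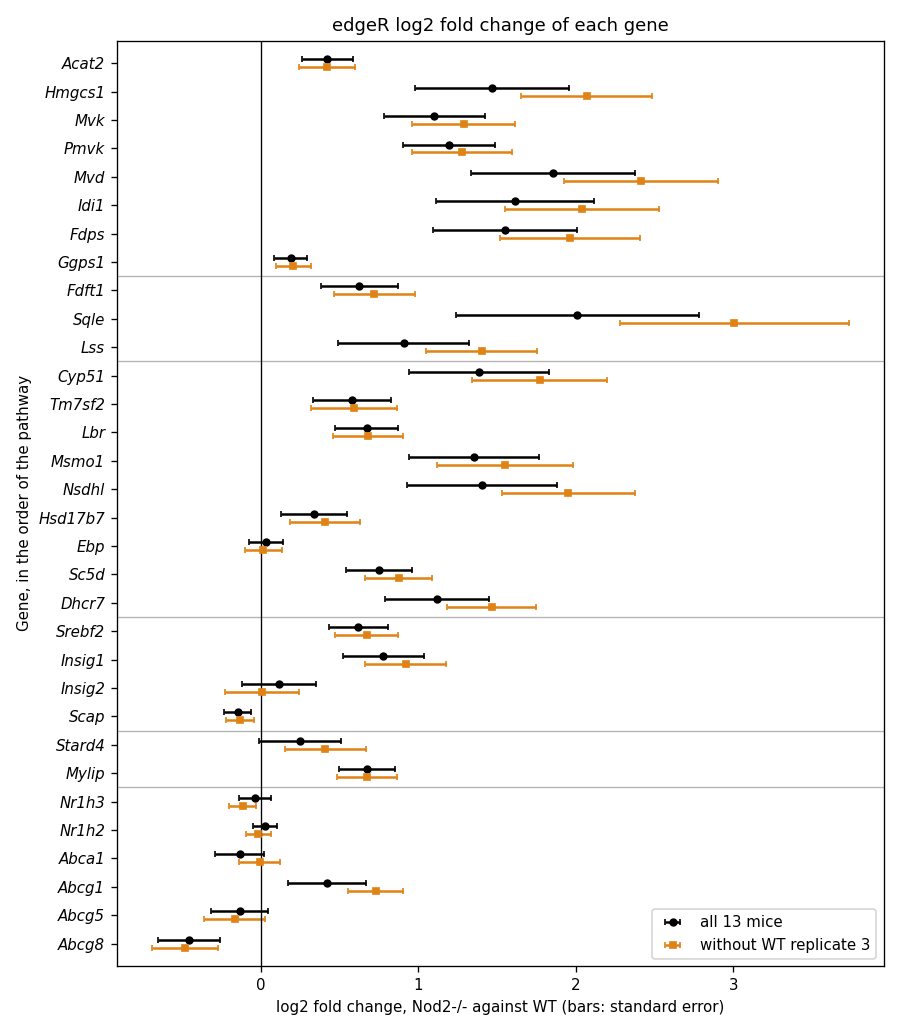
Fitted log2 fold change of *Nod2*-/- against WT by edgeR (horizontal axis, bars are standard errors) for each of the 32 genes in pathway order, with all 13 mice (black circles) and without WT replicate 3 (orange squares). With all mice the synthesis genes lie between 0.03 and 2.01 and the LXR and efflux genes between -0.46 and 0.42.

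Levels of different genes were compared as normalized counts per kilobase of exon. In WT liver the synthesis genes ranged from 26.7 ± 1.90 (SD, n = 6) for *Ggps1* to 1013 ± 79.0 (SD, n = 6) for *Ebp*. In *Nod2*-/- liver *Hmgcs1* had the highest mean level of the 32 genes, 1274 ± 779 (SD, n = 7), after 461 ± 396 (SD, n = 6) in WT, but its SD covers the level of *Ebp*, 1035 ± 159.9 (SD, n = 7). Together the 20 synthesis genes made up 643, 865 and 1876 CPM (counts scaled to an equal library total) in the lowest, median and highest WT mouse and 1015, 1944 and 3502 CPM in *Nod2*-/- mice. In 4 of 7 *Nod2*-/- mice the sum was above that of every WT mouse.

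The spread within each genotype was shared by many synthesis genes. *Nod2*-/- replicate 4 was above all 6 WT mice in 20 of 20 synthesis genes, and replicates 1 and 7 in 19. Replicates 2, 6 and 5 were above all WT mice in 12, 7 and 4 genes, and replicate 3 in 0, with the lowest value of its genotype in 14. WT replicate 3 was the highest WT mouse in 16 of 20 genes, and WT replicate 4 the lowest in 15. In 0 of the 32 genes were the genotypes free of overlap, against 0.753% of all genes that were so as higher in *Nod2*-/- mice. Without WT replicate 3, 7 of the 32 genes were, against 2.73%, namely *Hmgcs1*, *Mvk*, *Mvd*, *Sqle*, *Nsdhl*, *Dhcr7* and *Abcg1*. Without *Nod2*-/- replicate 3, 1 of the 32 genes was, *Pmvk*, against 0.989%.

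**Figure D3:**
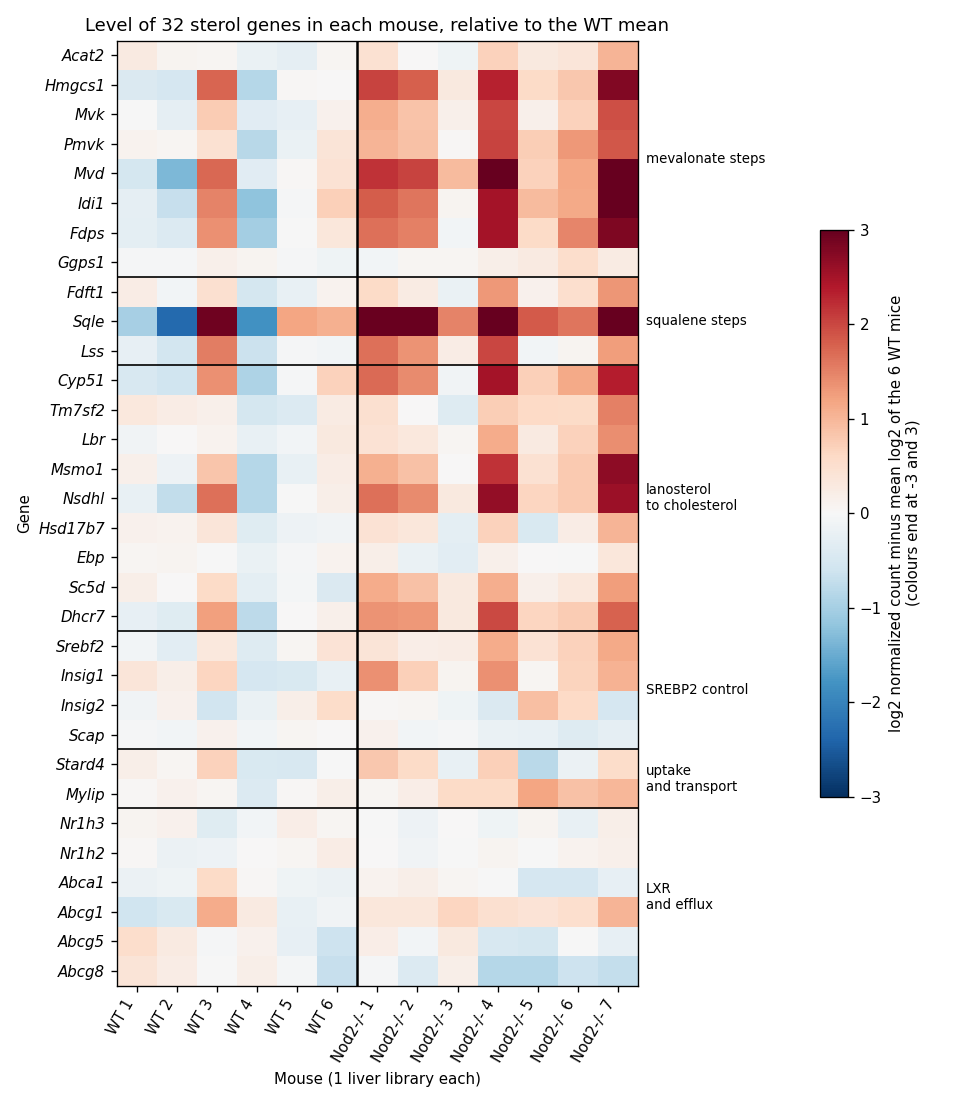
Level of each of the 32 genes (rows) in each mouse (columns), as the log2 normalized count minus the mean log2 value of the 6 WT mice, red above and blue below that mean. WT replicate 3 is red in most synthesis genes, as are *Nod2*-/- replicates 1, 2, 4 and 7, while most genes of *Nod2*-/- replicate 3 are pale.

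To describe how the genes varied together, log2 CPM of *Hmgcs1*, an early enzyme of the pathway, was compared with that of the other 31 genes within each genotype, giving 62 relations between genes that share a library and its depth. In *Nod2*-/- mice, 12 of the 19 other synthesis genes were past an adjusted p of 0.05 by Pearson's r (exact permutation, Benjamini-Hochberg over the 62 relations), and in WT mice 7 of 19 were. All of these r were positive and stayed at 0.5 or above without the 2 mice farthest from the median of *Hmgcs1*, although over all 19 genes in WT the median r went from 0.850 to 0.311 without them. An r of at least 0.9, a limit chosen after seeing the data, was reached by 11 of the 19 genes in *Nod2*-/- mice against 0.332% of the 13544 other tested genes, and by 7 of 19 in WT mice against 3.03%. By Spearman's rho, 14 genes in *Nod2*-/- and 7 in WT mice were past an adjusted p of 0.05.

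For *Sc5d* in *Nod2*-/- mice r was 0.973 (exact permutation p = 0.00119, adjusted p = 0.00957, n = 7) and rho was 0.929 (exact permutation p = 0.00675, adjusted p = 0.0322), and r was 0.969 in 5 mice. For *Dhcr7* in WT mice r was 0.989 (exact permutation p = 0.00278, adjusted p = 0.0115, n = 6) and rho was 0.943 (exact permutation p = 0.0167, adjusted p = 0.0470), and r was 0.956 in 4 mice. The smallest exact p is 0.00139 for r in 6 mice and 0.000198 in 7. None of the 6 LXR and efflux genes passed in either genotype, with a median r of -0.28 in WT and 0.25 in *Nod2*-/- mice. Of the control, uptake and transport genes *Scap* passed in WT (r = 0.928, exact permutation p = 0.00417, adjusted p = 0.0152, n = 6, with r = 0.885 in 4 mice, and rho = 0.943, p = 0.0167, adjusted p = 0.0470), and none passed in *Nod2*-/- mice. The difference between the genotypes was not tested.

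Among the genes of SREBP2 control, *Srebf2*, which codes for SREBP2 and is one of its target genes (ENSMUSG00000022463.7, chr15:82147181-82205379), had 474, 617 and 828 normalized counts in WT and 715, 843 and 1377 in *Nod2*-/- mice. Of the *Nod2*-/- mice, 4 were above all WT mice, of which replicate 6 was highest. *Srebf2* had a log2 fold change of 0.62 ± 0.19 (SE), with an adjusted p of 0.0867 by edgeR and 0.0366 by DESeq2 and a two-sided exact permutation p of 0.0186.

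*Insig1*, the Insig form that SREBP2 switches on (ENSMUSG00000045294.11, chr5:28071363-28078662), had 1434, 2042 and 3219 normalized counts in WT and 2133, 3342 and 5314 in *Nod2*-/- mice. All *Nod2*-/- mice but replicates 3 and 5 were above every WT mouse. For *Insig1* the log2 fold change was 0.78 ± 0.26 (SE), with an adjusted p of 0.104 by edgeR and 0.0447 by DESeq2.

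*Insig2*, the form that does not depend on SREBP2 (ENSMUSG00000003721.14, chr1:121304353-121332589), had 2598, 3871 and 5667 normalized counts in WT and 2728, 3927 and 7215 in *Nod2*-/- mice. The groups overlapped, with 2 *Nod2*-/- mice above all WT mice, and WT replicate 3 was the lowest of all mice. *Insig2* had a log2 fold change of 0.12 ± 0.23 (SE) with an adjusted p of 0.800 by edgeR. Within each mouse, log2 *Insig1* over *Insig2* was -0.91 ± 0.75 (SD, n = 6) in WT and -0.22 ± 0.94 (SD, n = 7) in *Nod2*-/- mice, and it was above 0 in WT replicate 3 and *Nod2*-/- replicates 1, 4 and 7. *Scap*, the escort protein, had a log2 fold change of -0.15 ± 0.09 (SE).

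*Mylip* codes for a ubiquitin ligase that marks the LDL receptor for breakdown and is a target of the LXR receptors (ENSMUSG00000038175.10, chr13:45389742-45412022). It had 87.7, 121 and 132 normalized counts in WT and 123, 176 and 265 in *Nod2*-/- mice. All *Nod2*-/- mice but replicate 1 were above every WT mouse, and the highest, replicate 5, was one of the lower mice for the synthesis genes. *Mylip* had a log2 fold change of 0.67 ± 0.18 (SE), with an adjusted p of 0.0656 by edgeR and 0.0148 by DESeq2 and a two-sided exact permutation p of 0.00699.

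*Stard4* (ENSMUSG00000024378.9), which carries cholesterol between membranes and is a target of SREBP2, had 1142, 1629 and 2596.5 normalized counts in WT and 911, 2357 and 2795 in *Nod2*-/- mice. The groups overlapped, with 2 *Nod2*-/- mice above all WT mice and replicate 5 below them all. *Stard4* had a log2 fold change of 0.25 ± 0.26 (SE) with an adjusted p of 0.588 by edgeR.

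**Figure D4:**
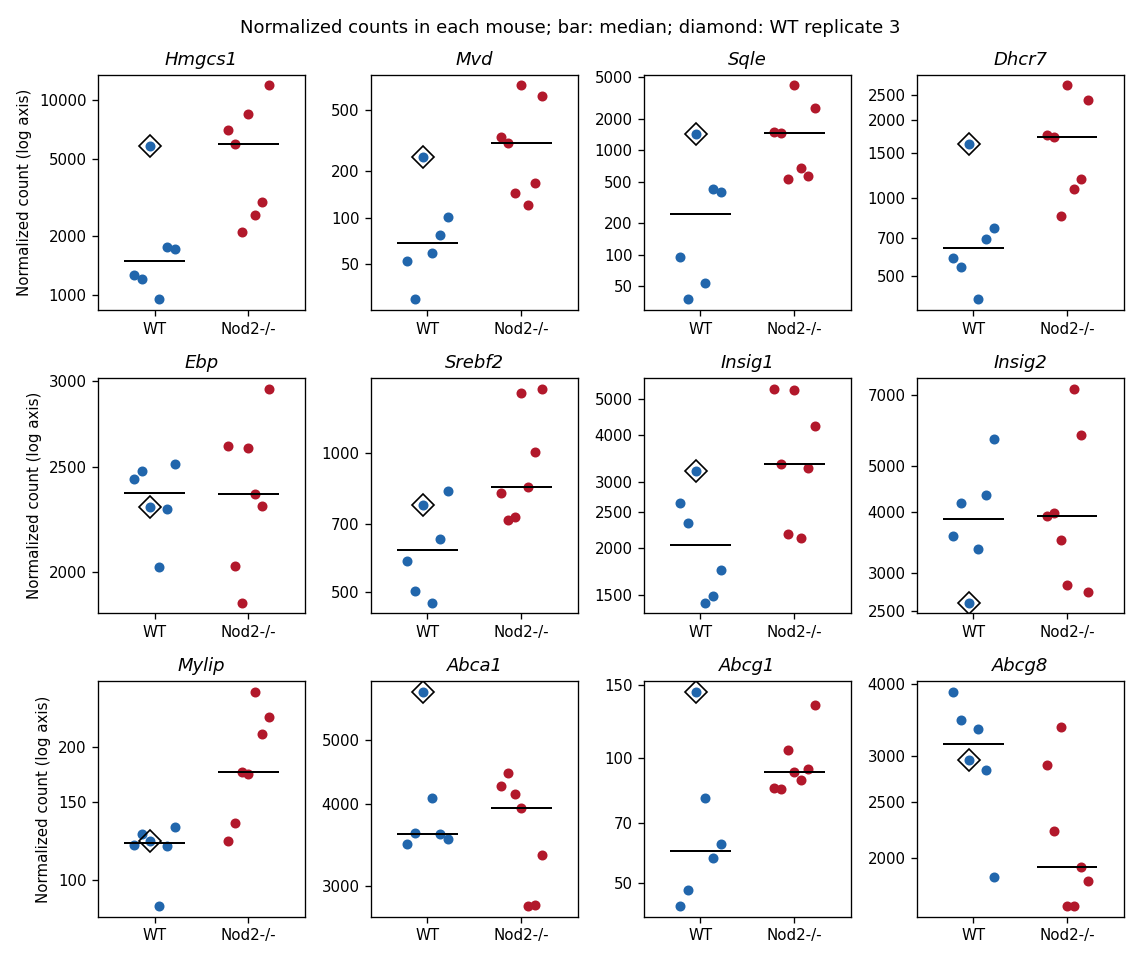
Normalized counts (vertical log axis) of 12 genes in each WT (blue) and *Nod2*-/- mouse (red), with bars at the median and a diamond around WT replicate 3. In *Hmgcs1*, *Mvd*, *Sqle* and *Dhcr7* this mouse lies among the *Nod2*-/- mice and the other 5 WT mice lie below them, whereas the genotypes overlap more widely in *Ebp*, *Insig2* and *Abca1*.

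The LXR and efflux genes had a median log2 fold change of -0.09, with 2 of 6 above 0. *Nr1h3*, the LXR alpha receptor (ENSMUSG00000002108.10, chr2:91184061-91202834), had 1610.5, 2175 and 2384 normalized counts in WT and 1792, 2065 and 2358 in *Nod2*-/- mice. All *Nod2*-/- mice lay within the range of the WT mice. *Nr1h3* had a log2 fold change of -0.04 ± 0.10 (SE) with an adjusted p of 0.847 by edgeR, and *Nr1h2*, the LXR beta receptor, had 0.03 ± 0.08 (SE).

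*Abca1*, which loads cholesterol onto apolipoprotein A-I (ENSMUSG00000015243.4, chr4:53030787-53159895), had 3484, 3607 and 5922 normalized counts in WT and 2803, 3940.1 and 4458 in *Nod2*-/- mice. WT replicate 3 was the highest of all mice, and the *Nod2*-/- mice lay on both sides of the other WT mice. For *Abca1* the log2 fold change was -0.13 ± 0.15 (SE) with an adjusted p of 0.626 by edgeR, and -0.01 with an adjusted p of 0.981 without WT replicate 3.

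*Abcg1*, a cholesterol exporter abundant in macrophages (ENSMUSG00000024030.6, chr17:31057675-31117988), had the lowest level per kilobase of the 32 genes, with 44.1, 59.8 and 145 normalized counts in WT and 84.3, 92.7 and 134 in *Nod2*-/- mice. WT replicate 3 was above all other mice, and the next WT mouse, at 80.0, was below every *Nod2*-/- mouse. *Abcg1* had a log2 fold change of 0.42 ± 0.25 (SE) with an adjusted p of 0.321 by edgeR, and 0.73 with an adjusted p of 0.0296 without WT replicate 3. It had 0.33 without *Nod2*-/- replicate 7 and 0.43 without *Nod2*-/- replicate 4.

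*Abcg8*, which with *Abcg5* forms the exporter of sterols into bile (ENSMUSG00000024254.15, chr17:84676302-84700333), had 1855, 3144.5 and 3870.5 normalized counts in WT and 1653.5, 1926 and 3373 in *Nod2*-/- mice. The lowest WT mouse, replicate 6, lay among the *Nod2*-/- mice, 3 of which were below all WT mice. *Abcg8* had a log2 fold change of -0.46 ± 0.20 (SE) with an adjusted p of 0.182 by edgeR. *Abcg5*, which shares 82 exon bases with *Abcg8* on the opposite strand, had -0.14 ± 0.18 (SE).

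Synthesis and efflux were then set against each other within each mouse, as the mean log2 CPM of the 20 synthesis genes minus that of the 6 LXR and efflux genes. This difference was -1.14 ± 0.53 (SD, n = 6) in WT and -0.08 ± 0.69 (SD, n = 7) in *Nod2*-/- mice, 1.06 higher in the latter and 1.21 higher without WT replicate 3. In 5 of 7 *Nod2*-/- mice it was above that of every WT mouse, and in 6 of 7 without WT replicate 3. The synthesis mean was 4.92 ± 0.54 (SD, n = 6) in WT and 5.95 ± 0.66 (SD, n = 7) in *Nod2*-/- mice. The efflux mean, 6.06 ± 0.14 (SD, n = 6) and 6.03 ± 0.15 (SD, n = 7), differed by less than the spread between mice.

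**Figure D5:**
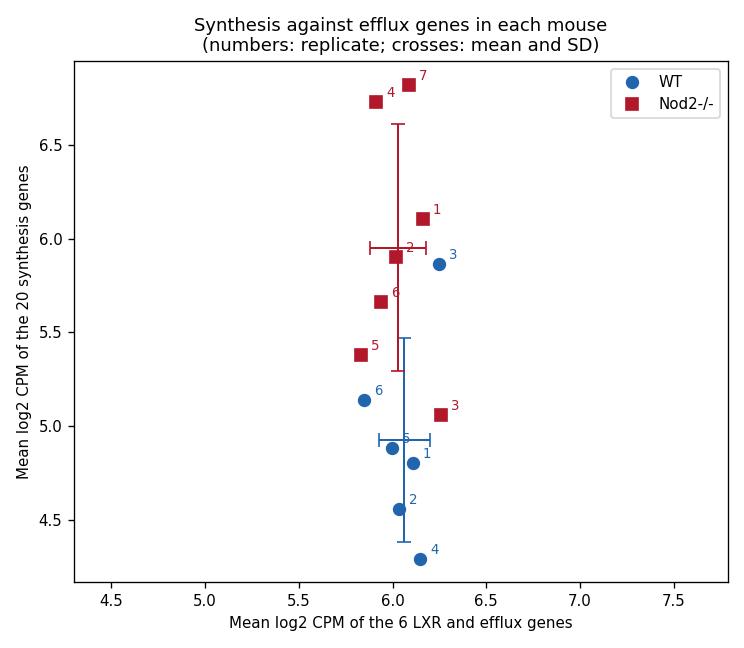
Mean log2 CPM of the 20 synthesis genes (vertical axis) against that of the 6 LXR and efflux genes (horizontal axis, same scale) in each WT (blue circles) and *Nod2*-/- mouse (red squares), numbered by replicate, with crosses for mean and SD. The mice spread from 4.29 to 6.82 on the synthesis axis and from 5.83 to 6.26 on the efflux axis.

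Of 67 other genes of sterol handling in 6 lists, 66 were tested and 0 were past 5% FDR by edgeR, with 9 higher and 16 lower at an unadjusted p under 0.05, where the shares over all genes were 12.9% and 10.2%. DESeq2 placed 2 past 5% FDR as higher and 5 as lower, against 3.81% and 3.45% of all genes. Without WT replicate 3, edgeR placed 5 as higher and 7 as lower, against 5.12% and 3.37% of all genes. *Por*, which passes electrons to Cyp51 and squalene epoxidase, had 5167, 8733 and 10713 normalized counts in WT and 2427, 4871 and 6938 in *Nod2*-/- mice. Its *Nod2*-/- median lay below the lowest WT mouse, while the ranges overlapped. *Por* had a log2 fold change of -0.84 ± 0.22 (SE), with an adjusted p of 0.0659 by edgeR and 0.00742 by DESeq2. Of the 7 electron donors and helpers in its list, 5 had a log2 fold change below 0.

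*Cyp46a1*, a cholesterol hydroxylase best known from neurons, had 32.8, 119.8 and 178 normalized counts in WT and 11.97, 24.3 and 92.5 in *Nod2*-/- mice. The ranges overlapped, and the *Nod2*-/- median lay below the lowest WT mouse. *Cyp46a1* had a log2 fold change of -1.72 ± 0.44 (SE), with an adjusted p of 0.0644 by edgeR and 0.00347 by DESeq2. *Sec23a* and *Sar1b*, parts of the coat of the vesicles that carry Scap and other cargo, were lower by DESeq2, with adjusted p-values of 0.0283 and 0.0326 and log2 fold changes by edgeR of -0.26 and -0.41. *Osbpl2*, a lipid transfer protein, was lower by DESeq2 with an adjusted p of 0.0145 (edgeR log2 fold change -0.29). *Pltp* and *Lpl*, which act on lipoproteins, were higher by DESeq2 with adjusted p-values of 0.0486 and 0.0485 (edgeR log2 fold changes 0.64 and 1.14). Of 12 genes of the non-sterol isoprenoid branch 0 were past 5% FDR by edgeR or DESeq2 and 2 were lower at an unadjusted p under 0.05 (against 10.2% of all genes), with the lowest p for *Nus1*, a subunit of the enzyme that makes dolichol (log2 fold change -0.23, adjusted p = 0.122 by edgeR).

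Markers of other cell types varied among these mice too. Of 81 markers in 12 lists 59 were tested. By edgeR 1 was past 5% FDR as higher (*Sox9*, log2 fold change 1.29, adjusted p = 0.0324) and 0 as lower, against 0.650% and 0.509% of all genes. At an unadjusted p under 0.05, 15 were higher and 7 lower, against 12.9% and 10.2% of all genes. DESeq2 placed 10 past 5% FDR as higher and 6 as lower, against 3.81% and 3.45% of all genes. Without WT replicate 3 edgeR placed 7 and 3, against 5.12% and 3.37%.

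The 5 markers of cholangiocytes and progenitor cells summed to 591 to 3576 normalized counts in WT, where replicate 3 was highest and the next mouse had 2050.2, and to 1777 to 6658 in *Nod2*-/- mice, where replicate 4 was highest. Most of this sum was *Spp1*, at 511 to 3456 in WT and 1541 to 6425 in *Nod2*-/- mice. Of the 5 markers, 3 had a log2 fold change above 0 and 2 below, *Krt19* with -0.40 and *Krt7* with -0.05. Markers of dividing cells summed to 71.3 to 285 in WT, again highest in replicate 3, and to 172 to 580.2 in *Nod2*-/- mice, highest in replicate 7. The 8 markers of Kupffer cells and macrophages, 7 with a log2 fold change above 0 and 1 below, were highest in the same mice. They summed to 3540 in WT replicate 3 (next WT mouse 3381) and 7119 in *Nod2*-/- replicate 7 (next 3789). Stellate cell markers, 2 above 0 and 4 below, summed to 6912 in WT replicate 3 (next 4424) and at most 5107 in *Nod2*-/- mice. Neutrophil markers, of which 4 of 8 were tested, summed to 69.1 to 151 in WT and to 94.1 to 15646 in *Nod2*-/- mice, highest in replicate 7, and the defining marker *Ly6g* was at 0 in some mice of each genotype. Of 6 tested markers of lung epithelium 5 were lower at an unadjusted p under 0.05 by edgeR, with sums over the 8 markers of 229 to 3284 in WT and 48.6 to 544 in *Nod2*-/- mice.

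Genes that mark liver tumors also set WT replicate 3 apart. *Afp*, a fetal serum protein, reached 2257 normalized counts in this mouse and at most 119 in the other WT mice, against 47.8 to 803 in *Nod2*-/- mice. *H19*, *Gpc3* and *Golm1* were likewise highest among WT mice in replicate 3, while *Glul* was not. With all mice the log2 fold change of *Afp* was 0.02 with an adjusted p of 0.991 by edgeR, and without WT replicate 3 it was 2.88 with 0.0287. Without this mouse *H19* and *Golm1* also passed, with 3.82 (adjusted p = 0.0364) and 2.33 (adjusted p = 0.0188) by edgeR. The part of these cell types and of tumor tissue in the result for the sterol genes was not tested. Without *Nod2*-/- replicate 7 the median log2 fold change of the synthesis genes was 0.95, with 19 of 20 above 0. By edgeR 0 of them were past 5% FDR, where only 28 of all 13402 genes tested were higher and 26 lower. At an unadjusted p under 0.05, 14 were higher, as were 1346 of all genes tested.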

How the data were processed

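Liver RNA of 6 WT and 7 *Nod2*-/- mice was sequenced from polyA-selected, stranded libraries. Reads were cleaned by the authors with Trimmomatic 0.33 and aligned to GRCm38 with TopHat2 2.1.1 and GENCODE M16, and the deposited values are whole read counts per gene and mouse without normalization. The counting program and its strand setting are not given in the sources used here, so overlapping genes are uncertain. Besides the overlaps named above, *Fdps* shares 1124 exon bases with *Gm43738* on the same strand, which had 0 counts. On the opposite strand *Ggps1* shares 257 with *Arid4b* and *Cyp51* shares 166 with *Akap9*, and some other genes overlap partners with few counts. One line without identifier or values was left out. Names and positions come from GENCODE M21, which held 53360 of the 53465 genes.

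Groups follow the genotype labels. The 13545 genes kept by filterByExpr (99.9% of the counts) were analysed in R 4.3.3 with edgeR 4.0.16 (TMM, glmQLFit and glmQLFTest, two-sided, no covariate), and p-values were adjusted by Benjamini-Hochberg over these genes. Fold changes compare *Nod2*-/- with WT. For normalized counts, each library was brought to the average effective library size, and log2 CPM used a prior count of 2. Exact permutation tests of single genes covered all 1716 assignments and cannot give a p below 0.000583. The members, other gene lists and alternatives were chosen with earlier results of these data known. Lowest, median and highest values are given for the 2 genes of lowest edgeR p in each role (3 in roles of at least 7 genes) and for *Srebf2*, *Insig1*, *Insig2*, *Nr1h3* and *Abca1*. *Hmgcs1*, the reference of the correlations, was added after its values were seen. Other pathway genes are named when past 5% FDR by edgeR or DESeq2, or else by the lowest p of their list.

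The alternatives were DESeq2 1.42.0, voomWithQualityWeights (limma 3.58.1), RLE normalization, omission of the 20 most abundant genes, no filter, a minimum of 10 counts per gene in each mouse, a replicate block, 1 surrogate variable (sva 3.50.0), and omission of each mouse in turn. The fits were also run on simulated counts with 200 changed genes. Those counts were drawn gene by gene, without a mouse that deviates in many genes together. That run therefore does not bear on how the calls depend on single mice. Promoters are RefSeq's, of the reference genome and not of BALB/c. In 36 pairs of libraries of 1 genotype, chi-square per degree of freedom was 10.68 to 159.8, so that no library was a copy of another within sampling noise.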

Additional observations from a re-analysis of the deposited data

Results flagged for a closer look

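In 12 of the 64 sets formed by each of the 32 genes in each genotype, 1 mouse lay far from the others by Dixon's test at the 95% level. Chance gives about 1 in 20 such sets, and the genes are not independent of each other. WT replicate 3 was this mouse in 10 of the 12. It had the highest WT normalized counts in *Hmgcs1* (5770.4, next WT mouse 1759), *Mvk* (329.9, next 211), *Mvd* (248.5, next 101) and *Fdps* (415, next 202). It was highest also in *Sqle* (1421, next 428), *Lss* (1772, next 601), *Nsdhl* (1018, next 364) and *Dhcr7* (1626, next 769.7), and among the efflux genes in *Abca1* (5922, next 4090.5) and *Abcg1* (145, next 80.0).

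The other 2 sets were *Mylip*, in which WT replicate 4 was lowest (87.7, next 119), and *Abcg1*, in which *Nod2*-/- replicate 7 was highest (134, next 105).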

How the results depend on the processing

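With all mice, edgeR placed 0 of the 20 synthesis genes and 0 of the 12 other genes past 5% FDR. The number of synthesis genes was 9 with DESeq2, 11 with voomWithQualityWeights, 5 with 1 surrogate variable and 15 with DESeq2 without WT replicate 3 (chosen after seeing the data), and the number of other genes was 3, 0, 1 and 4. Leaving out each mouse in turn gave 0 to 13 synthesis genes (13 without WT replicate 3, 1 without *Nod2*-/- replicate 3) and 0 to 3 other genes (3 without WT replicate 3, 1 without *Nod2*-/- replicate 1). RLE normalization, both other filters and omission of the 20 most abundant genes gave 0. The shares of all genes called under these settings are not given here. Over the 22 alternatives 19 of the 32 genes were past 5% FDR at least once and 13 never. The 22 include DESeq2 without WT replicate 3, which alone placed these 19 past 5% FDR (against 7.96% of all genes as higher). The share of all genes past 5% FDR in at least 1 alternative is not given here, so the count of 19 has no background.

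The median log2 fold change of the synthesis genes was 0.93 to 1.34 when 1 mouse was left out, that of the efflux genes -0.12 to -0.02, and the synthesis minus efflux difference 0.91 to 1.25. The sign of a log2 fold change turned in 9 of 704 values, in 4 genes. When 1 mouse was left out, *Ebp* ranged from -0.0258 to 0.0826, *Insig2* from -0.0587 to 0.246, *Nr1h3* from -0.117 to 0.00204 and *Nr1h2* from -0.0170 to 0.0734. DESeq2 without WT replicate 3 gave -0.00286 for *Insig2* and -0.0286 for *Nr1h2*. The cause of these changes was not tested.

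The replicate numbers did not pair the mice, since deviations of same-numbered mice from their group means had r of -0.302 to 0.304, above 0.1 in 1 of 6 pairs. With the replicate block 0 genes were past 5% FDR, the synthesis median was 0.88, the efflux median -0.08, the synthesis minus efflux difference 0.93 and *Ebp* -0.0333.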
